A study of Mus musculus with 16 samples.

Results

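The chromatin of 8 genes that encode macrophage lineage transcription factors was described across 9 ChIP-seq peak lists from mouse bone-marrow macrophages. The genes were Spi1, Cebpa, Cebpb, Runx1, Maf, Mitf, Tfec and Zeb2, 8 of the 21887 protein-coding genes that GRCm38 places on its autosomes and sex chromosomes. They were named for their known role and not by a cut on a measured value. Earlier results of these data were known when they were chosen, so the choice was not blind to the data. Every peak that overlapped the annotated bounds of one of them, or the 20 kb on either side, was taken, which gave 377 of 368675 peaks. The 8 windows came to 1001.62 kb, or 0.0368% of the span of those chromosomes.

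The series held 16 samples, 9 immunoprecipitations and 7 inputs, with 1 library per group. All cells were from adult C57BL/6 mice, cultured for 5 days with M-CSF, the growth factor that drives macrophage differentiation. Wild-type cells left untreated were precipitated for EZH2, p53, H3K27ac and H3K27me3, and wild-type cells given nigericin after LPS priming were precipitated for EZH2. SIRT1 was precipitated from untreated cells of 4 kinds: Ezh2 knock out, the Ezh2-WT sample, p53 knock out and the p53-WT sample, where both WT samples were labelled wild type. No library of LPS alone was used here, and the effects of the LPS step and of nigericin cannot be told apart. How the knockouts were made, and whether a library came from 1 mouse or from several, is not stated in the labels. With 1 library per group no difference between groups could be tested, and no value below has a replicate error.

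PU.1, the product of Spi1, and the C/EBP proteins, the products of Cebpa and Cebpb, are the factors best known for opening and maintaining macrophage enhancers, and PU.1 is required for the myeloid lineage. RUNX1 acts with them in blood stem cells and myeloid progenitors, c-MAF and the MITF/TFE proteins act in differentiated macrophages and osteoclasts, and ZEB2 is a zinc-finger repressor that helps to set myeloid cell identity. H3K27ac is a histone mark of active promoters and enhancers. H3K27me3 is the mark that EZH2, the enzyme of Polycomb repressive complex PRC2, places on repressed genes. p53 is a DNA-binding stress factor, and SIRT1 is a deacetylase that is brought to chromatin by other proteins.

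Promoter sequences of RefSeq, build GRCm38.p6, were matched for 12 annotated start sites of 6 members, and no entry was matched for Spi1 and Maf. Those shown here mark the places where H3K27ac peaks reached one start of a gene and missed another, or stopped on both sides of a start, and for Zeb2 a start under its largest peak. Each is the 250 bases before the start site, 5′ to 3′ on the strand of the gene, and capitals mark any of 7 motifs that were searched for. The motifs, on both strands, were PU.1 GAGGAAGT, CEBP TTGCNNAA, RUNX TGTGGT, MITF/TFE CACGTG, MAF TGCTGA, ZEB CACCTG and AP-1 TGANTCA.

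The Cebpa start (chr7:35119043-35119292, plus strand) lay in a gap between a pair of H3K27ac peaks and held none of the 7 motifs.
Cebpa: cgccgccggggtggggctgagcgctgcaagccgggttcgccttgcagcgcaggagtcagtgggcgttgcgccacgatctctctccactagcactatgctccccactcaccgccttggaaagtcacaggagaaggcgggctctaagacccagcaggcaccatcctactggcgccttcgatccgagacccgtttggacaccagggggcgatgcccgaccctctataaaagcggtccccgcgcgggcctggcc

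The proximal start of Runx1 (chr16:92697330-92697579, minus strand), inside the gene, lay within an H3K27ac peak. The distal start of Runx1 (chr16:92826075-92826324, minus strand), at the end of the gene, did not.
Runx1 proximal: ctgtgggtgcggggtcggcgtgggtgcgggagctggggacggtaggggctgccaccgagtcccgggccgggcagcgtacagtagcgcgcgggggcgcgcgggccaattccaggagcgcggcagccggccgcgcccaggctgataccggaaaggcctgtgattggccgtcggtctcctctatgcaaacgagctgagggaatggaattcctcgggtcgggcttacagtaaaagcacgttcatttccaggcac
Runx1 distal: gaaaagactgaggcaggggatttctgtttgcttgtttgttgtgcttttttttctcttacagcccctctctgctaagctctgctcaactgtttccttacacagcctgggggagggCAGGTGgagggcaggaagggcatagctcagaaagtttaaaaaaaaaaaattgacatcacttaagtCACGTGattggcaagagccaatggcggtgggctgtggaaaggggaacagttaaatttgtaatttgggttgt

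The first start of Mitf (chr6:97806808-97807057, plus strand) was in H3K27ac. The second (chr6:97929567-97929816, plus strand), further into the gene, was far from any H3K27ac peak.
Mitf first: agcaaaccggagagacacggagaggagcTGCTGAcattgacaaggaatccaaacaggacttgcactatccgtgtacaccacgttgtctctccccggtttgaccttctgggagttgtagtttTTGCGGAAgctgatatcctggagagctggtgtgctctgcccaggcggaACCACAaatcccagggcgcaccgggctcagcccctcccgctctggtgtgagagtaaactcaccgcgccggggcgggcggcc
Mitf second: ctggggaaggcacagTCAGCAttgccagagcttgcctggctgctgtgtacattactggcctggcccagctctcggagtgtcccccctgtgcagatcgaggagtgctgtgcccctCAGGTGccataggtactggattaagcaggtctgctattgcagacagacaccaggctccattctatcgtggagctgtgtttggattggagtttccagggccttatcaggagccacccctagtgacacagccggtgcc

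All 4 starts of Zeb2 lay in 1 H3K27ac peak. The one furthest into the gene (chr2:45110278-45110527, minus strand) held a pair of AP-1 letters. A SIRT1 peak of the p53 knockout library (chr2:45110496-45110757) reached only the outer end of this stretch. That peak lay 0.219 kb from the start and did not cover the AP-1 letters.
Zeb2 innermost: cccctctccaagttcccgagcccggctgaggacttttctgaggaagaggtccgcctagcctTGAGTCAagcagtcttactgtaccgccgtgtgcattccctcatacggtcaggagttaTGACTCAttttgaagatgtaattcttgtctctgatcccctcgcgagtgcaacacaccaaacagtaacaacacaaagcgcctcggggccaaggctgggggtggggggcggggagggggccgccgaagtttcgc

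H3K27ac covered these genes widely and H3K27me3 was nearly absent. All 8 windows held an H3K27ac peak, where 47.6% of all protein-coding genes held one in the same kind of window. H3K27me3 peaks were found at 2 of the 8, Runx1 and Mitf, against 50.6% of all genes. H3K27ac with no H3K27me3 was the state of 6 members, and of 22.6% of all genes (4939). A mark present in fewer cells and a weaker mark in every cell cannot be told apart in such pooled chromatin.

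In the H3K27ac list, 174 of 51604 peaks fell in the windows, which is 174 peaks per Mb against 18.96 per Mb over the genome, a density 9.16 times as high. They covered 336 kb, or 33.5% of the windows, against 2.68% of the genome. The H3K27me3 list had 88037 peaks, 32.3 per Mb, and 4 of them, 3.99 per Mb, fell in the windows. These covered 1.68 kb, or 0.168% of the windows against 4.57% of the genome. The share of each window in H3K27ac ran from 10.1% to 54.4% with a median of 35.7%. Over all genes the median was 0 and the 75th percentile was 4.65%, so every member lay above the 75th percentile, and 5 lay above the 95th percentile of 27.6%. Those 5 were Cebpb, Spi1, Runx1, Cebpa and Zeb2. Mitf, Maf and Tfec followed in that order.

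**Figure D1:**
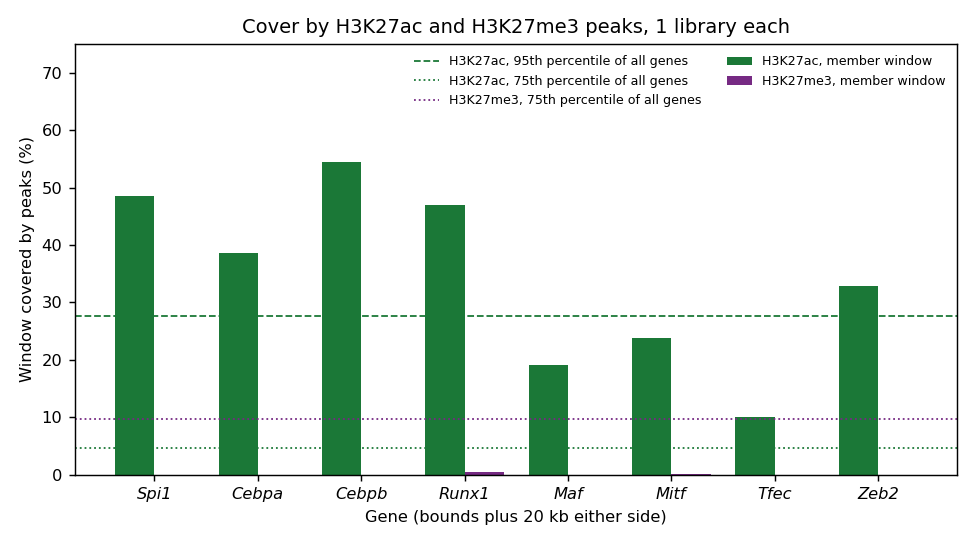
Share of each window (gene bounds plus 20 kb either side, in %) covered by H3K27ac peaks (green bars) and H3K27me3 peaks (purple bars), 1 library each, with percentiles over all protein-coding genes as lines. Green bars stand between 10.1% and 54.4% and all pass the 75th percentile of H3K27ac, and no purple bar passes 0.430%.

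The highest H3K27ac enrichment in any of the windows was at Spi1. Peak height is given as the authors' fold enrichment, the ratio of the fragments at the summit to the local expectation after 1 was added to both. Spi1 (gene 20375, chr2:91082374-91115759) held 13 H3K27ac peaks that covered 48.5% of its window, more than at 98.7% of genes. A single peak of 19.8 kb (chr2:91081577-91101375) reached from before the lower-coordinate end of the gene to beyond its middle, with a fold of 10.8 and 143 fragments at the summit. It was longer than 99.9% of the peaks in the list. It was followed outside the gene by 5 peaks within chr2:91070887-91081149, with folds from 3.79 to 5.22. The Spi1 window also holds Slc39a13 and Mybpc3, other protein-coding genes, whose bounds touched 1 H3K27ac peak each (chr2:91063455-91063947 and chr2:91131514-91131854, both with a fold of 3.26 and 11 fragments). No H3K27me3, EZH2 or p53 peak lay in the window, and the nearest H3K27me3 peak was 134 kb from the gene.

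The C/EBP genes, short genes with no intron, had most of their H3K27ac, in kb, in the flanks, which make up nearly all of their windows. The share covered was higher within the gene than in the flanks, 78.6% against 35.9% at Cebpa and 71.1% against 53.7% at Cebpb. Cebpa (gene 12606, chr7:35119293-35121928), the C/EBP gene needed for the step to granulocyte and macrophage progenitors, had 8 H3K27ac peaks over 38.6% of its window. The highest, with a fold of 6.54 and 35 fragments, lay downstream of the gene (chr7:35126046-35127229), and so did the widest at 5.94 kb (chr7:35133813-35139754, fold 5.08). The lncRNAs Gm35724, Gm51475 and Gm35665 lie in this flank and were touched by 4, 2 and 2 H3K27ac peaks. The widest peak touched Gm35724 and Gm35665. The start site itself fell in a gap of 512 bp between a peak with a fold of 3.04 (chr7:35117789-35118928) and one with a fold of 5.56 (chr7:35119441-35121511), 148 bp from the second. Upstream of the first peak no H3K27ac was listed for 18.5 kb, to the end of the window. The nearest H3K27me3 peak was 57.0 kb from the gene (chr7:35178948-35189978, 11.03 kb long, fold 6.85). EZH2 was listed there in both wild-type libraries, with a fold of 3.82 untreated (chr7:35184737-35186461) and of 1.78 after nigericin (chr7:35184762-35186121). The last of these had a −log10 q of 0, where q is the p of a peak adjusted over the list, so that only its p passed the limit of the list.

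Cebpb (gene 12608, chr2:167688915-167690432), a C/EBP gene known for its part in inflammatory gene expression, had the highest H3K27ac cover of the 8 members. Its 5 peaks covered 54.4% of the window, more than at 99.2% of genes, and each was longer than 3 kb. Their folds along the chromosome were 4.90, 5.72, 4.47, 9.18 and 7.73, with 45 to 82 fragments at the summits. The gene body carried the second of these, and the 2 highest, downstream (chr2:167703645-167707336 and chr2:167708197-167712951), had their summits 17.2 and 21.6 kb from the lower-coordinate end of the gene. As at Cebpa, the start site fell between peaks, 0.239 kb from the nearest, and the first peak touched only the outer edge of the promoter window. No H3K27ac was listed in the first 16.6 kb of the window upstream of the gene. The lncRNA A530013C23Rik lies in the acetylated flank, and 2 of the 5 peaks touched it.

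Runx1 (gene 12394, chr16:92601466-92826074), on the minus strand, had 77 H3K27ac peaks, the most of any member in the longest window. They covered 124 kb, or 47.0% of the window and 46.8% of the gene itself. Their folds ran from 2.12 to 6.29, and 6 of the 77 had a fold of 5 or more. The cover was made of many separate peaks, of which the widest were 14.6 kb (chr16:92664583-92679208, fold 4.60) and 12.8 kb (chr16:92619010-92631854, fold 4.46). The longest stretch with no H3K27ac was 19.9 kb, between the starts (chr16:92732281-92752181). The lncRNA Gm30224 lies in the lower flank, and 6 of the 77 peaks touched it. The proximal start lay in a peak with a fold of 4.28 and 72 fragments (chr16:92697195-92698785). The distal start lay 230 bp from the end of a peak inside the gene, with a fold of 6.04 and 76 fragments (chr16:92824246-92825844). In the sequence printed for the distal start a ZEB match begins 136 bases before the start and the MITF/TFE letters CACGTG begin 71 bases before it. A pair of RUNX matches begins 28 and 36 bases after the start, beyond the printed sequence.

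Maf (gene 17132, chr8:115703253-115706894), which encodes c-MAF, had 8 H3K27ac peaks over 19.1% of its window, more than at 91.6% of genes. The highest had a fold of 7.15 and 61 fragments and lay over the upper-coordinate end of the gene (chr8:115705671-115707480). Of the other 7 peaks, 2 touched the gene and 5 lay in the lower flank, where the highest had a fold of 5.16 (chr8:115696656-115697920). The upper flank held no H3K27ac peak over 19.4 kb. H3K27me3 was first met 23.3 kb from the gene, just outside the window (chr8:115730159-115730540, fold 2.72).

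**Figure D2:**
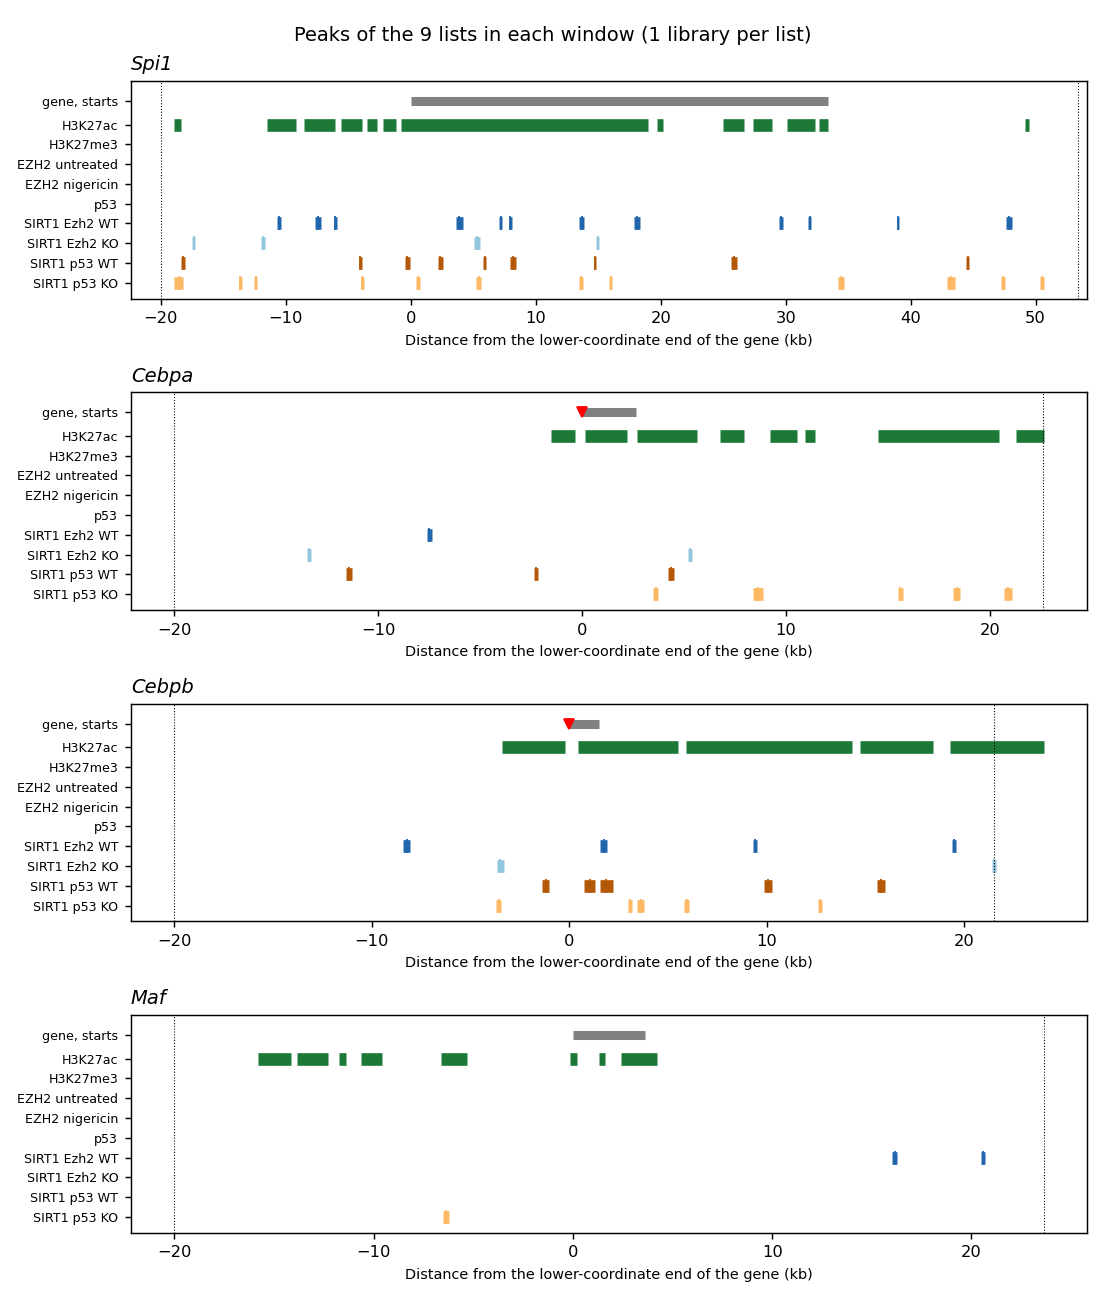
Peaks of the 9 lists around Spi1, Cebpa, Cebpb and Maf, by distance in kb from the lower-coordinate end of each gene (grey bar, red triangles for RefSeq starts, dotted lines for the window). H3K27ac runs over Spi1 in a block of 19.8 kb, lies mostly downstream of Cebpa and Cebpb, and lies on the lower side of Maf, and the H3K27me3, EZH2 and p53 rows are empty.

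The 2 MITF/TFE genes carried H3K27ac on 1 side only. Mitf (gene 17342, chr6:97807002-98021360) had 23 H3K27ac peaks over 23.8% of its window, all within 79.5 kb (chr6:97787571-97867026) around its first start. The highest had a fold of 8.10 and 92 fragments (chr6:97813748-97820637), the widest was 7.62 kb (chr6:97821252-97828874, fold 7.65), and 10 of the 23 were longer than 3 kb. The first start lay in a peak with a fold of 6.45 and 66 fragments (chr6:97807007-97810709). Beyond the last peak, no H3K27ac was listed over the remaining 174 kb of the window, and the next peak on the chromosome came after 957 kb. The other 2 matched starts lay in this stretch, 62.8 and 125 kb from the nearest H3K27ac. Mitf is known for start sites used in different cell types, of which the innermost serves melanocytes.

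Tfec (gene 21426, chr6:16830927-16898464), the member of this family whose expression is most restricted to macrophages, had the lowest H3K27ac cover of the 8. Its 7 peaks covered 10.1% of the window, still more than at 84.2% of genes, and their folds ran from 1.98 to 3.83. The widest peak, 4.98 kb, lay over the start (chr6:16893803-16898781, fold 3.07, 55 fragments). The highest lay in the middle of the gene (chr6:16863916-16865899, 21 fragments), and the 52.99 kb on its 3′ side held none.

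Zeb2 (gene 24136, chr2:44983512-45117442), on the minus strand, had 33 H3K27ac peaks over 32.9% of its window, more than at 96.3% of genes. A peak of 14.2 kb with a fold of 9.99 and 98 fragments (chr2:45103760-45117989) held all 4 matched starts. It was longer than 99.6% of the peaks in the list. Peaks on either side of it had folds of 5.00 (chr2:45097596-45101674) and 5.08 (chr2:45118347-45122271), and the 54.0 kb at the 3′ end of the window held none. Mir5129 and the antisense gene Zeb2os lie within the bounds of Zeb2, and the large peak also touched Zeb2os. The lncRNA Gm28643 lies partly in the upstream flank and runs past the end of the window. Over its whole length it was touched by 11 H3K27ac peaks.

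**Figure D3:**
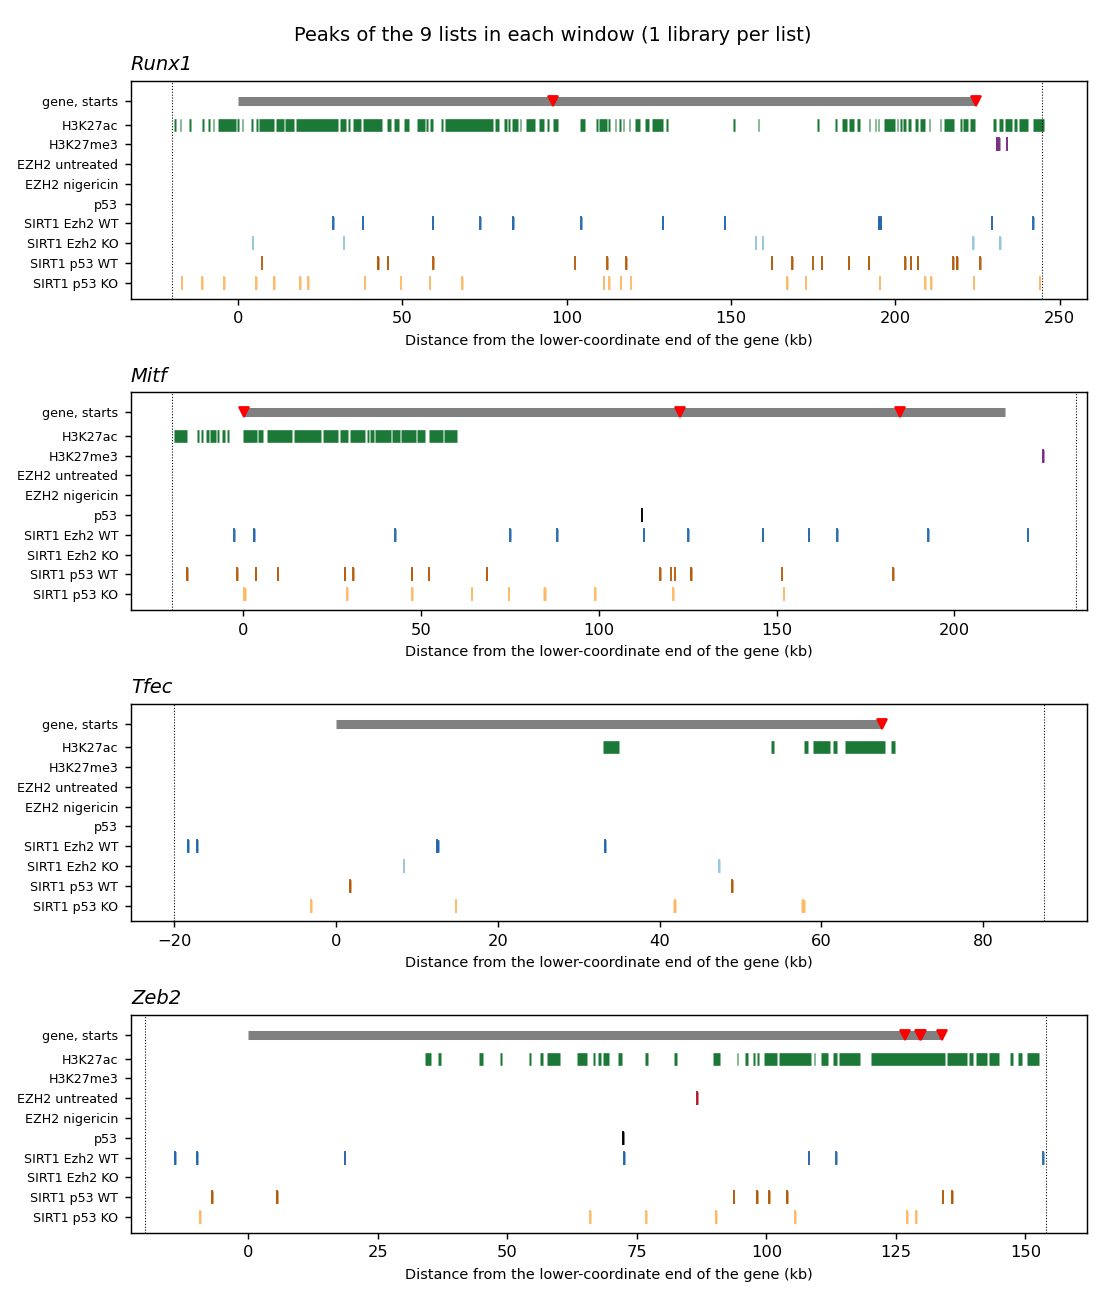
Peaks of the 9 lists around Runx1, Mitf, Tfec and Zeb2, drawn as for the other members. H3K27ac is spread over all of Runx1 in 77 peaks, lies towards the outermost start of Mitf, Tfec and Zeb2, and the H3K27me3, EZH2 and p53 rows hold 4, 1 and 2 peaks.

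**Figure D4:**
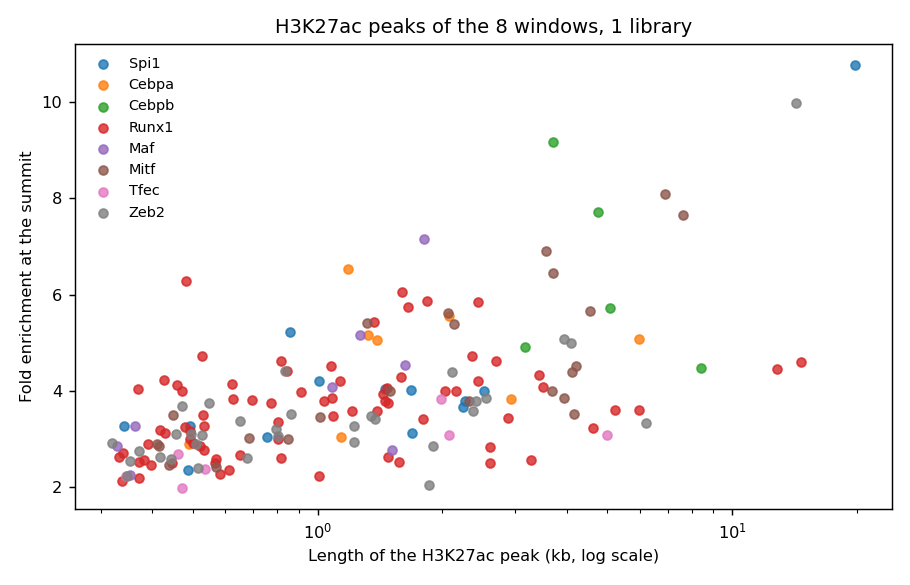
Length in kb (log scale) against fold enrichment at the summit for the 174 H3K27ac peaks of the 8 windows, 1 point per peak and 1 library. The 2 highest peaks, at Spi1 (19.8 kb, fold 10.8) and over the starts of Zeb2 (14.2 kb, fold 9.99), are also long, while the long peaks of Runx1 (14.6 and 12.8 kb) have folds of 4.60 and 4.46.

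The 12 promoter windows of 300 bases (250 before a start and 50 after it) differed between the marks in the same way. H3K27ac peaks overlapped 8 of the 12, against 11.1% of 32851 RefSeq promoters. Those 8 were the starts of Cebpb and Tfec, the first start of Mitf, the proximal start of Runx1 and the 4 starts of Zeb2. The Zeb2 starts share 1 peak, and a pair of their windows overlap, so they are not independent. No H3K27me3 peak overlapped any of the 12, against 15.3% of all promoters, and no EZH2 or p53 peak did. For EZH2 untreated, EZH2 after nigericin and p53 the shares of all promoters were only 3.004%, 1.21% and 0.0852%, so 0 of 12 says nothing particular of these genes. The motif letters were thinly spread. CEBP was found in 3 of the 12, RUNX in 3, MAF in 2, ZEB in 2, MITF/TFE in 1, AP-1 in 1 and PU.1 in 0, where 10.8%, 16.8%, 19.5%, 20.2%, 7.15%, 7.81% and 3.20% of all promoters held them. The 3 with CEBP letters were the first and second starts of Mitf and the outermost start of Zeb2.

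The few H3K27me3 peaks were small. At Runx1, 3 of them lay upstream of the distal start, with folds of 2.80 (chr16:92832226-92832608), 4.06 (chr16:92832948-92833400) and 3.06 (chr16:92835185-92835485). Their summits held 11 to 16 fragments, and the nearest lay 6.15 kb from the gene. The latter 2 overlapped H3K27ac peaks of the same cells. At Mitf, 1 peak with a fold of 2.96 and 11 fragments lay beyond the 3′ end (chr6:98031679-98032220). The median of the H3K27me3 list was 3.50, and of the 4 peaks only the one with a fold of 4.06 exceeded it. None of the 4 lay inside a gene.

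EZH2 was listed at 1 of the 8 genes in untreated cells and at 0 after nigericin, where 24.7% and 16.1% of all genes had a peak. The single peak was within Zeb2 (chr2:45069848-45070241), with a fold of 2.67 and 9 fragments, outside both H3K27ac and H3K27me3. Its −log10 q was 0.0828, so its q was above 0.05. The EZH2 lists were of unequal length, 9771 and 5128 peaks, or 3.59 and 1.88 peaks per Mb of the genome. With 1 peak against 0 nothing about nigericin can be read at these genes.

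p53 was listed at 2 of the 8 genes, against 9.52% of all genes. At Zeb2 the p53 peak (chr2:45055554-45055938) had a fold of 3.74 and 10 fragments and touched the edge of an H3K27ac peak, over 171 of its 385 bp, with its summit outside. Its fold was above the highest p53 fold of 99.5% of genes, where genes with no p53 peak counted as lower. Only 9.52% of all genes had such a peak, so most of that percentage is genes without one. The −log10 q of the Zeb2 peak was 0.455. A SIRT1 peak of the Ezh2-WT library overlapped it. At Mitf the p53 peak (chr6:97918932-97919247) had a fold of 2.38, 6 fragments and a −log10 q of 0, and lay in the part of the gene with no H3K27ac. Over the windows p53 stood at 1.997 peaks per Mb against 1.86 in the genome.

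SIRT1 peaks were more numerous, but each rested on few fragments. At least 1 was found at 8, 5, 7 and 8 members in the Ezh2-WT, Ezh2 knockout, p53-WT and p53 knockout lists, where 84.3%, 53.6%, 79.0% and 79.6% of all genes had one. The 4 lists held 54, 16, 61 and 65 peaks in the windows, or 53.9, 15.97, 60.9 and 64.9 per Mb. These are 1.96, 2.39, 2.94 and 2.95 times the lists' genome densities. As a share of each list the windows held 0.0722% (95% Wilson interval 0.0554 to 0.0942), 0.0881% (0.0542 to 0.143), 0.108% (0.0843 to 0.139) and 0.109% (0.0853 to 0.138), all above the 0.0368% of the genome that the windows span. These intervals cover counting error only. Of the 196 peaks, 177 had a −log10 q of 0, and the median summit held 4 to 5.5 fragments with 3 at the least and 9 at the most.

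The members differed in SIRT1 density. Spi1 had 12, 4, 9 and 12 peaks in the Ezh2-WT, Ezh2 knockout, p53-WT and p53 knockout lists, or 16.4, 5.45, 12.3 and 16.4 per 100 kb. This was a higher density than at 98.6%, 94.5%, 96.3% and 98.9% of genes, and Spi1 was highest of the 8 in all 4 lists. Cebpb came next in all 4, with 4, 2, 5 and 5 peaks, or 9.63, 4.82, 12.0 and 12.0 per 100 kb. With so few peaks the order of these genes within a list is not firm. Cebpa had 1, 2, 3 and 5, in the same order of lists, and 11.7 per 100 kb in the last. Runx1 had 12, 6, 19 and 22 peaks, which at its length was 4.53, 2.27, 7.18 and 8.31 per 100 kb.

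The remaining members lay nearer to the medians of all genes, which were 4.16, 0.684, 3.06 and 3.36 per 100 kb. Mitf had 12, 0, 15 and 9 peaks, or 4.72, 0, 5.90 and 3.54 per 100 kb. Zeb2 had 7, 0, 8 and 7, or 4.02, 0, 4.60 and 4.02 per 100 kb. Tfec had 4, 2, 2 and 4. Maf had 2, 0, 0 and 1, and the first 2 were in the flank with no H3K27ac.

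**Figure D5:**
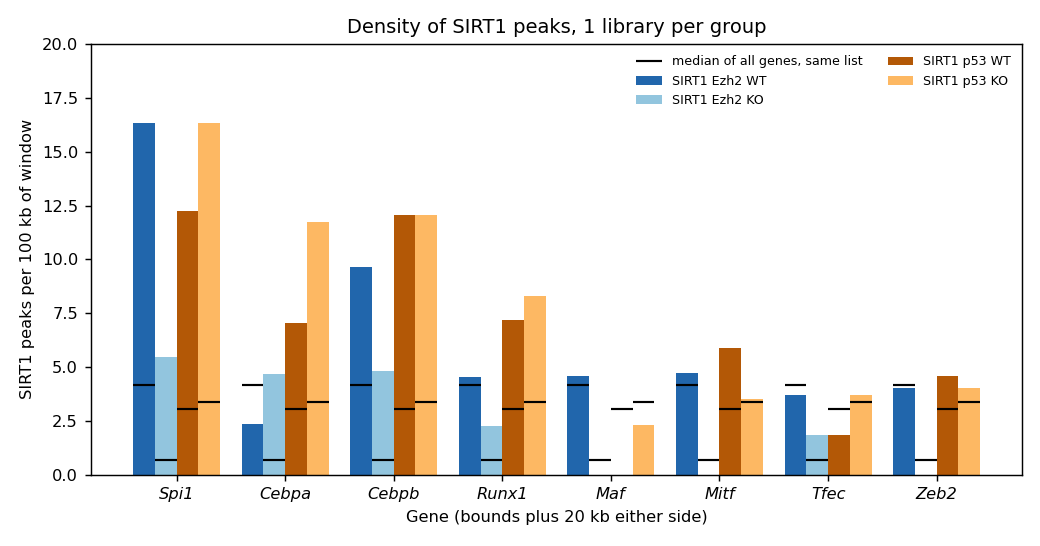
SIRT1 peaks per 100 kb of window for each member in the 4 lists, 1 library per group, with the median of all genes in the same list as a black line. Spi1 reaches 16.4 per 100 kb in 2 lists, and the light blue bar of the Ezh2 knockout list is absent at Maf, Mitf and Zeb2.

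Maf, Mitf and Zeb2 were the 3 members with no SIRT1 peak in the Ezh2 knockout list. That list held 18170 peaks against 74767 in the Ezh2-WT list. A median gene had 0.684 peaks per 100 kb in it, and 53.6% of all genes had a peak. The windows of Mitf and Zeb2, at 254 and 174 kb, are long, and Runx1, at 265 kb, had 6 peaks in that list. Whether a window of such length with none is unusual was not tested. Per listed peak, the share in the 8 windows was 0.0881% in the knockout and 0.0722% in the Ezh2-WT list, with intervals that overlap. In the p53 pair the shares were 0.109% in the knockout and 0.108% in the p53-WT list. The part of sequencing depth in the lengths of the lists was not tested.

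SIRT1 peaks overlapped H3K27ac, by at least 1 bp, at 105 of the 196, or 53.6%, where H3K27ac covers 33.5% of the bases of the windows. The first is a share of peaks and the second of bases, and a peak can touch H3K27ac by its edge alone, so they are not like measures. With an overlap of 50% of the shorter peak the count was 98. By list the overlap by at least 1 bp was 26 of 54 (48.1%, interval 35.4 to 61.1), 9 of 16 (56.3%, 33.2 to 76.9), 34 of 61 (55.7%, 43.3 to 67.5) and 36 of 65 (55.4%, 43.3 to 66.8). Over the whole lists the shares were 9.97%, 15.5%, 12.3% and 13.3%. Per Mb of H3K27ac, however, the windows held 77.4, 26.8, 101.2 and 107.2 SIRT1 peaks, and the genome 102.1, 38.5, 94.99 and 109.4. Outside H3K27ac the windows held 42.1, 10.5, 40.6 and 43.6 peaks per Mb against 25.4, 5.80, 18.6 and 19.6 in the genome. The share in H3K27ac was high at Cebpb, 14 of 16, and Spi1, 24 of 37, and lower at Runx1, 35 of 59, and Zeb2, 12 of 22. At Mitf it was 12 of 36, at Cebpa 5 of 11, at Tfec 2 of 12 and at Maf 1 of 3. Mitf, Tfec and Zeb2 are those with the longest stretches free of H3K27ac, 174, 52.99 and 54.0 kb. Cebpa and Maf, with longest stretches of 18.5 and 19.4 kb, had lower SIRT1 shares in H3K27ac than Zeb2. A link between these stretches and the SIRT1 shares was not tested. Of the 196 peaks, 1 touched H3K27me3, the Ezh2 knockout peak upstream of Runx1.

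The same place was seldom found again in another SIRT1 library. No peak was shared between the Ezh2-WT and Ezh2 knockout lists, 0 of 54 and 0 of 16, where over the whole lists 1.94% and 8.01% were shared. Between p53-WT and p53 knockout, 3 of 61 and 3 of 65 were shared, 4.92% and 4.62%, against 4.97% and 4.69% of the whole lists. The 2 wild-type libraries, which do not differ in labelled genotype, shared 2 of 54 and 2 of 61, 3.70% and 3.28%, against 3.93% and 5.22%. In the windows the share common to the 2 wild-type libraries was thus no higher than that common to p53-WT and p53 knockout. This rests on 2 and 3 shared peaks. Over the whole lists p53-WT shared slightly more with Ezh2-WT, 5.22%, than with p53 knockout, 4.97%. The Ezh2-WT list is also the longer of those 2, with 74767 peaks against 59807, and the part of list length in these shares was not tested. No change of SIRT1 with genotype can be read from single peaks here.

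The 196 peaks merged into 185 places, of which 174 were found in 1 list, 11 in 2 lists and 0 in 3 or 4. All 11, and 86 of the 174, touched H3K27ac by at least 1 bp. The stretch common to both lists overlapped H3K27ac at 8 of the 11 and lay just outside it at 3, of which 1 each was at Spi1, Cebpb and Runx1. Spi1 held 6 of the 11, Cebpb 2, Runx1 2 and Mitf 1. The places shared by the 2 wild-type lists were within Spi1 (chr2:91090237-91090819, folds of 3.30 and 2.90) and just beyond Cebpb (chr2:167690468-167691107, 2.75 and 3.48). Those shared by p53-WT and p53 knockout were a pair outside Spi1 (chr2:91063454-91064334, 4.07 and 2.76, and chr2:91078222-91078590, 2.90 and 3.31) and 1 within Mitf (chr6:97854264-97854621, 2.90 and 3.31). The p53 pair was named after its values were seen.

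The SIRT1 peaks with a q of at most 0.05 were 2 in number. One lay in the 19.8 kb H3K27ac peak of Spi1 in the p53-WT list (chr2:91084523-91084953), with a fold of 5.23, 8 fragments and a −log10 q of 2.24. The other lay at the far edge of the Cebpb window in the Ezh2 knockout list (chr2:167710331-167710540), with a fold of 4.85, 8 fragments and a −log10 q of 1.61, also in H3K27ac. Neither overlapped a peak of another SIRT1 list. At promoters, SIRT1 was listed in 0, 0, 1 and 2 of the 12 windows in the 4 lists, against 5.72%, 2.89%, 6.54% and 6.90% of all promoters. These were the outermost start of Zeb2 in p53-WT (fold 2.90, 4 fragments) and, in p53 knockout, the first start of Mitf (3.21, 5 fragments) and the innermost start of Zeb2 (3.31, 5 fragments). At the last of these the peak lay 0.219 kb from the start itself.

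Relatives of the members, counted in full in the same windows, carried more H3K27me3. Of 18 genes of the same families, 15 had H3K27ac and 13 had H3K27me3, where the members had 8 of 8 and 2 of 8. The median share of the window in H3K27ac was 5.87% for the relatives and 35.7% for the members, and for H3K27me3 it was 2.74% and 0. Spib, Mafa and Zeb1, sister genes of Spi1, Maf and Zeb2, had no H3K27ac peak. Runx3 and Mafa had H3K27me3 folds of 11.6 and 11.4 and shares of 50.5% and 53.5%. Tfeb, a relative of Mitf and Tfec, had the highest H3K27ac fold of the relatives, 7.26, and 51.5% of its window covered.

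Of 24 other myeloid and blood stem cell factors, 22 had H3K27ac and 11 had H3K27me3, with median shares of 16.7% and 0. Bhlhe40, Fli1, Egr2 and Atf3 had the highest H3K27ac folds, 9.17, 8.72, 7.95 and 7.82, below those of Spi1 and Zeb2. By share of the window in H3K27ac, Klf6 had 79.9%, above every member. Irf8, Bhlhe40, Atf3 and Etv6 had 52.2%, 51.8%, 48.9% and 48.8%, and like Klf6 had no H3K27me3 peak. Wide H3K27ac without H3K27me3 was thus not particular to the members. Gfi1 and Myb, factors of progenitors, had no H3K27ac peak, and Gata2, a stem cell factor, had the highest H3K27me3 fold, 12.4. Other genes among the 24 went the other way. Lmo2 and Lyl1 had H3K27ac over 14.9% and 20.2% of their windows and no H3K27me3 peak. Gfi1b and Tal1 had both marks, with H3K27ac over 15.8% and 7.60% and H3K27me3 over 29.4% and 23.9%. The label of the cells was checked with markers. All 10 macrophage markers had H3K27ac, with a median share of 32.3%, and of 8 neutrophil markers 2 did, Cebpe and Ltf, with a median of 0. H3K27ac was found at 5 of 8 lymphocyte, 2 of 6 erythroid, 3 of 6 stromal or endothelial and 2 of 4 dendritic cell markers, with median shares of 0.881%, 0, 7.59% and 0.466%. Several of these counts are near the 47.6% of all genes with a peak, so as counts they do not separate these cell types. The part of other cells in the members' values was not tested.

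Likeness between genes was measured as the distance over the 9 lists between log2 of 1 plus the highest fold in the window, where the median gene lay 3.61 to 4.90 from a member. The 2 nearest genes were Senp3 and Psap for Spi1 (0.341 and 0.344), Natd1 and Rfc5 for Cebpa (0.138 and 0.143) and Zfat and Mgat5 for Cebpb (0.213 and 0.229). Runx1 was nearest to Sema4d and Hspa8 (0.156 and 0.165), and Maf to Bcl2a1b and Bnip3l (0.198 and 0.221). Mitf was nearest to Vtcn1 and Sema4a (0.416 and 0.453), Tfec to Lrrk2 and Zfp362 (0.0123 and 0.0455) and Zeb2 to Sirpb1c and Gask1b (0.647 and 0.889). Zeb2, with a peak of both EZH2 and p53, had the most distant neighbours. No member was nearest to another.

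The bound of 20 kb cut through acetylated chromatin at several genes. In the 5 kb inside the window ends, 7 members had 15 H3K27ac peaks with folds up to 9.18, and in the 5 kb outside, 5 members had 17 with folds up to 10.1. The highest of the latter lay beyond Cebpb. H3K27me3 had 0 peaks in the 5 kb inside and 1 in the 5 kb outside, at Maf.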

How the data were processed

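Immunoprecipitated and input DNA of primary macrophages was sequenced, and 9 peak lists of 10 columns were used, 1 per immunoprecipitation, without pooling. The build was GRCm38/mm10 and the tools included MACS2 and deepTools, per the submitters' processing notes. Their versions, the aligner, the read filters and the input behind each list were not given in the sources used here. As tested on the values, the deposited fold column is the ratio of summit to background fragments, each plus 1. The deposited −log10 columns hold p and q as the authors' caller gave them, and the deposited score column is 10 times the −log10 q or p. The deposited summit column, an offset in bases, gave summit positions. From the values, every peak of the histone lists has a q of at most 0.05, while the lists of EZH2, p53 and SIRT1 have no limit on q and their calls are weak.

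Summit fragments were solved from fold and p, which they met to within 0.001, and library depth is otherwise unknown. Windows came from RefSeq bounds of GRCm38.p6 plus 20 kb, all with coordinates counted from 1. A peak was counted on 1 bp of overlap. Python 3.11.15, pandas 2.3.3, NumPy 2.4.6, SciPy 1.17.1 and Matplotlib 3.10.9 were used, and the counting was tested on simulated data. No test between groups was possible with 1 library each. The Wilson intervals are at 95%.

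The 8 members were named in every list by peak number, highest fold and its position, with the widest histone peaks, all EZH2 and p53 peaks, and the SIRT1 peaks with a q of at most 0.05 or in both wild-type lists. Up to 4 relatives or other factors were named by highest histone fold, and 2 nearest genes per member. Some further genes and peaks were named after their values were seen. The members, lists and motifs were chosen with earlier results of these data known. The alternatives tried were a q limit, no flank, the summit inside the window, removal of peaks found in all 4 SIRT1 lists, a stricter histone limit, 50% overlap and lists of equal length.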

Additional observations from a re-analysis of the deposited data

How the results depend on the processing

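Of 108 values recomputed for 32 results, 78 stayed within the margin set for them (1.5 times for a count) and 30 moved, 19 of these when only peaks with a q of at most 0.05 were kept. With that limit the EZH2 and p53 peaks of untreated cells in the windows fell to 0 at 0 members, SIRT1 in Ezh2-WT and p53 knockout to 0 at 0 members, and SIRT1 in Ezh2 knockout and p53-WT to 1 at 1 member each. The SIRT1 peaks shared by p53-WT and p53 knockout, and by the 2 wild-type libraries, then numbered 0 both ways, the EZH2 and p53 peaks in H3K27ac 0, and the SIRT1 peaks in H3K27ac 2 and in H3K27me3 0. Within the gene bounds alone, H3K27me3 had 0 peaks at 0 members and covered 0%, SIRT1 had 33 peaks at 5 members in Ezh2-WT, 9 at 3 in Ezh2 knockout and 40 at 5 in p53 knockout. H3K27me3 covered 0.0452% of the windows with a −log10 q of at least 5, and an overlap of 50% left 0 EZH2 or p53 peaks in H3K27ac. The q limit leaves fewer peaks and the gene bounds alone are shorter than the windows, so both settings lower counts by construction. The H3K27ac results kept within their margin in every alternative run. For the q limit this was fixed in advance, because every peak of the histone lists already has a q of at most 0.05. Removal of peaks found in all 4 SIRT1 lists could not change a SIRT1 count, because no place was in all 4. Values of 0, such as EZH2 after nigericin, could not change in any setting. Part of the 78 therefore says nothing about stability. No paired analysis was possible because each group has 1 library and the labels carry no replicate numbers. In the windows a SIRT1 summit held 3 to 9 fragments and a p53 summit 6 to 10, against 11 to 143 for H3K27ac.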
